A study of Mus musculus with 12 samples.

Results

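The 5 repeat names described here are grouped as internal parts and terminal repeat of MERVL, a mouse endogenous retrovirus. The internal parts are named MERVL-int, ERVL-B4-int, ERVL-int and MERVL_2A-int, and MT2_Mm is the long terminal repeat of MERVL. ERVL-B4-int and ERVL-int carry the name of the wider ERVL group and not that of MERVL. The term MERVL rows is used below as a short name for the whole set. They were found by name among 18538 repeat names, and all 5 carry the ERVL family and the LTR class in the deposited annotation. The set was chosen by results of the KO against WT comparison that were already known, so the members' own differences between the genotypes are given as a description with no test.

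MERVL belongs to the ERVL group of endogenous retroviruses, whose copies are scattered over the mouse genome. A complete copy carries an internal region with gag and pol genes between a pair of terminal repeats. The terminal repeat holds the promoter, and many copies are terminal repeats alone, left behind when the internal region was lost by recombination. MERVL RNA rises sharply when the mouse embryo begins to transcribe its own genome at the 2-cell stage, and MT2_Mm copies also start transcripts of neighbouring genes there. MERVL RNA is for this reason the usual marker of the 2-cell state.

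Total RNA was sequenced from C57BL/6 preimplantation embryos at the 2-cell stage, 1.5 days after fertilization, with 6 libraries per genotype. The KO embryos came from Kdm4a knockout oocytes and the WT embryos from wild-type oocytes, and Kdm4a knockout sperm fertilized both, so that KO is m-/p- and WT is m+/p-. Kdm4a encodes a demethylase of histone H3 lysines. The oocytes therefore differ in genotype, and so do the embryos, since only WT embryos carry an intact maternal allele. Neither group has a paternal Kdm4a allele, embryos were placed in individual tubes, and the labels do not give the number of embryos per library or of females.

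The values are read counts per repeat name, summed over all copies, so no single locus can be placed on the genome. Totals were 7952526 to 16493286 counts in KO and 10946392 to 18902360 in WT. Their means did not differ beyond the spread between libraries (exact permutation test, two-sided, p = 0.487, adjusted p = 0.626 over 3 comparisons), nor did the share of ribosomal RNA repeats, left after ribosomal RNA depletion, at 5.55% ± 0.775 in KO and 5.74% ± 0.488 in WT (SD, n = 6 each, exact permutation p = 0.626, adjusted p = 0.626). The p-values measure the spread between these libraries, since nothing says that they came from separate females. Each MERVL row had at least 70995 counts in every library. Markers were limited to repeats. As for the 2-cell label, MERVL-int held the most reads of all names in 5 of 6 WT libraries and ranked 3 or 4 in KO libraries, without correction for the length of the elements, which the files do not give.

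RNA of the set was lower in KO in each of the 5 rows, by a similar amount. MERVL-int had 19686 to 39592 normalised CPM in KO, with a median of 35997, against 45234 to 91277 in WT, with a median of 64825. Normalised CPM are counts scaled to a common library size after TMM scaling, which aligns the libraries on the bulk of the repeats. The highest KO library, replicate 5, lay below the lowest WT library, also replicate 5. The means were 32176 ± 8631 in KO and 66062 ± 14862 in WT (SD, n = 6 each). The fitted log2 fold change was -1.04 (SE 0.19). The values are per library and not per cell, so fewer cells with MERVL RNA and less MERVL RNA per cell cannot be told apart.

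Of the internal rows related to MERVL-int, MERVL_2A-int had 14948 to 29010 normalised CPM in KO, with a median of 26173, against 32496 to 65730 in WT, with a median of 47141. ERVL-B4-int had 14134 to 27689 in KO, with a median of 25115, against 31090 to 63780 in WT, with a median of 45243. ERVL-int had 5709 to 11585 in KO, with a median of 10166, against 12501 to 26434 in WT, with a median of 18971. In all 3 rows every KO library was below every WT library, and in the same order the fit gave log2 fold changes of -1.02 (SE 0.18), -1.03 (SE 0.19) and -1.05 (SE 0.19).

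The terminal repeat MT2_Mm had 4498 to 9064 normalised CPM in KO, with a median of 7802, against 9451 to 19082 in WT, with a median of 13429. Here the highest KO library was replicate 2, and it too lay below every WT library. Its log2 fold change in the fit was -0.92 (SE 0.18).

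**Figure D1:**
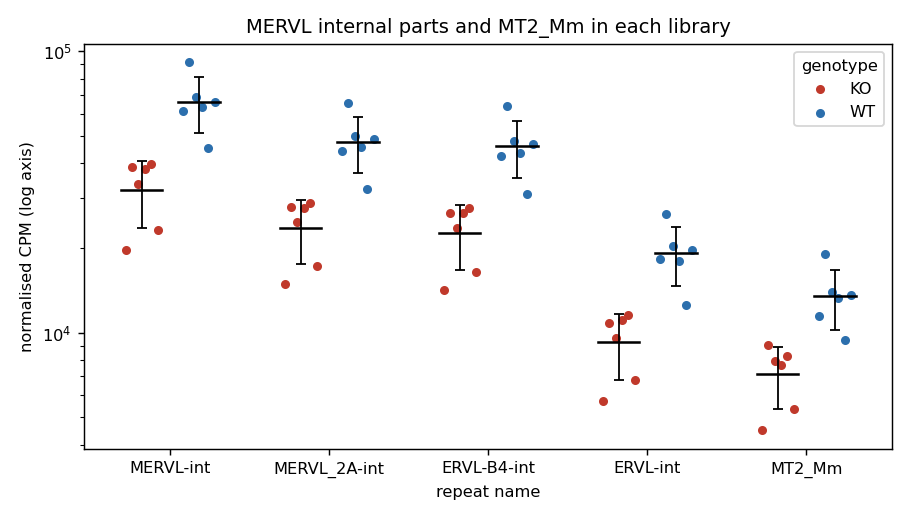
Normalised CPM on a log axis of the 5 MERVL rows in each library, with KO in red left of WT in blue, 6 points per genotype, and the mean ± SD as black bars. In each row the highest KO point lies below the lowest WT point, and KO replicates 1 and 6 form the low end.

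The fit over all 3312 tested repeats (edgeR quasi-likelihood test) placed 5 of 5 members among the repeats called lower at an adjusted p under 0.05, while 1.27% of the tested repeats were called lower and 1.42% were called in either direction. Likewise all 5 members had every KO library below every WT library, as did 1.39% of tested repeats. These counts describe a set chosen on the same contrast and say nothing further about it. The call of MT2_Mm was lost without KO replicate 6, without WT replicate 3, without WT replicate 6, without WT replicate 2 and KO replicate 5 together, and with no filter on low counts. The other 4 members were called under each alternative run. These calls too are a description and no support, since the set was chosen on this contrast.

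The libraries kept the same order in each row at the extremes. KO replicate 1 was the lowest of all 12 libraries and KO replicate 6 the next in all 5 rows, WT replicate 2 was the highest, and WT replicate 5 was the lowest of its genotype. The coefficient of variation of MERVL-int was 26.8% over KO libraries and 22.5% over WT libraries, and for MT2_Mm it was 25.1% and 23.9%. Other values moved with these extremes. KO replicates 1 and 6 had the most repeat names with a count, 6957 and 6584, and the largest TMM factors, 1.26 and 1.24. WT replicate 2 had the fewest such names, 4632, and the smallest factor, 0.767. Their part in the level of MERVL was not tested.

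The TMM factors themselves did not overlap between the genotypes, at 1.12 ± 0.109 in KO and 0.901 ± 0.0758 in WT (SD, n = 6 each), so the size of the difference depends on the scaling. Under total-count scaling the median log2 fold change of all tested repeats moved to 0.32, from 0.01, and those of MERVL-int, MERVL_2A-int, ERVL-B4-int, ERVL-int and MT2_Mm were -0.73, -0.71, -0.72, -0.75 and -0.61. As a plain share of counts, MERVL-int made up 2.48% to 4.27% in KO, with a median of 3.73%, against at least 4.42% in WT, with a median of 5.98%. MT2_Mm made up 0.566% to 0.893% in KO, with a median of 0.841%, against 0.923% to 1.46% in WT, with a median of 1.22%. The groups stayed apart by this measure in MERVL-int, MERVL_2A-int, ERVL-B4-int and MT2_Mm. For ERVL-int they overlapped, since its highest KO share, 1.25%, exceeded its lowest WT share, 1.22%.

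Counts of MERVL-int were also set against other repeats of the same library, which needs no scaling. Such a ratio is lower with fewer MERVL-int reads or with more reads of the other repeats, which it cannot tell apart. Per 100 reads of short interspersed elements (SINE), MERVL-int had 12.2 to 25.2 reads in KO and 31.6 to 56.3 in WT. Per 100 reads of long interspersed elements (LINE) it had 21.4 to 34.7 in KO and 39.8 to 70.6 in WT, and per 100 reads of DNA transposons 141 to 271 in KO and 319 to 614 in WT. The genotypes did not overlap against these 3 classes. They did overlap per 100 ribosomal RNA reads, at 45.9 to 89.0 in KO and 70.5 to 128.7 in WT, where 4 of 6 KO libraries lay below every WT library. Per 100 reads of the other ERVL names, the nearest relatives in the files, MERVL-int had 104 to 174.4 reads in KO and 173.0 to 260.3 in WT, again with 4 of 6 KO libraries below every WT library.

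Transcripts of MTA_Mm, MTA_Mm-int and MTB_Mm, repeats that are abundant in mouse oocytes, served as a list of RNA inherited from the oocyte. Their summed level was 58840 to 102296 normalised CPM in KO and 85470 to 126547 in WT, with 5 of 6 KO libraries below every WT library. This level rests on the TMM factors, which did not overlap between the genotypes. None of the 3 rows passed the edgeR test in the main fit, while some alternative fits, such as DESeq2, called some of them lower. None of these 3 rows was at 0. Per 100 reads of this list, MERVL-int had 28.3 to 53.1 reads in KO, with a median of 43.0, and 45.9 to 74.2 in WT, with a median of 67.3. All 6 KO libraries were below the WT median and 3 were below every WT library. The part of inherited RNA in the level of MERVL was not tested.

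The ratio of terminal to internal reads was slightly higher on average in KO, with overlapping groups. There were 0.201 to 0.235 MT2_Mm reads per MERVL-int read in KO, with a median of 0.230, against 0.187 to 0.210 in WT, with a median of 0.207. The means were 0.223 ± 0.0144 in KO and 0.204 ± 0.00870 in WT (SD, n = 6 each), a difference of 0.13 in the log2 ratio, KO minus WT. KO replicates 1, 2, 3 and 6 lay above every WT library, while KO replicates 4 and 5, at 0.201 and 0.209, lay within the WT range. The ratio counts reads and is not corrected for length, so it is not the number of terminal repeats per internal part. Reads that fit MT2_Mm can come from complete copies or from terminal repeats alone, which counts per name cannot separate.

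The same difference was 0.12 when MT2_Mm was set against MERVL-int plus MERVL_2A-int or against all 4 internal rows. It lay between 0.11 and 0.16 without any single library. For context, 44 other repeats of these files have a terminal row and an internal row of the same name, each averaging 10 normalised CPM or more. Their differences in the log2 ratio ranged from -0.91 to 0.78 with a median of 0.08, and 17 of the 44 exceeded that of MT2_Mm and MERVL-int. The pair for MTA, the oocyte repeat, had a difference of 0.01.

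The 4 internal rows moved almost as 1 quantity. MERVL_2A-int had 0.736 ± 0.0140 reads per MERVL-int read in KO and 0.723 ± 0.00639 in WT, and ERVL-int had 0.288 ± 0.00616 in KO and 0.290 ± 0.00834 in WT (SD, n = 6 each). The corresponding coefficients of variation were 1.90% and 0.884% for MERVL_2A-int and 2.14% and 2.88% for ERVL-int, against more than 20% for the level of MERVL-int. The closest pair was ERVL-B4-int and MERVL_2A-int, with 0.954 ± 0.00600 reads of the first per read of the second in KO and 0.961 ± 0.00527 in WT. The sources used here do not say how reads that fit more than 1 name were assigned, so these rows may hold the same reads and are not independent measures of MERVL.

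**Figure D2:**
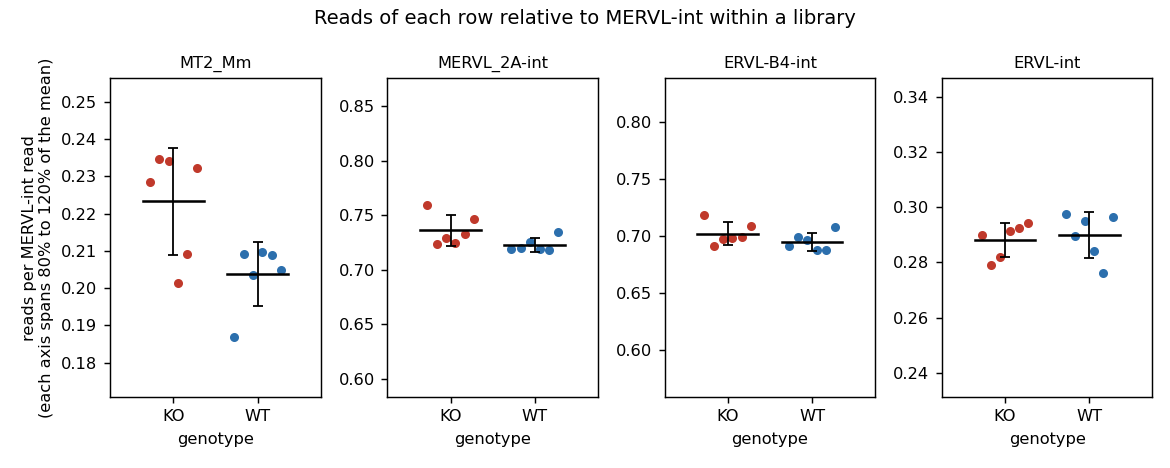
Reads of MT2_Mm, ERVL-int, ERVL-B4-int and MERVL_2A-int per MERVL-int read in each library, KO in red left of WT in blue, with the mean ± SD as black bars (n = 6 each). Each vertical axis covers the same relative span around its mean and does not start at 0. MT2_Mm has 4 KO points above all WT points, while the genotypes overlap in each of the 4 panels.

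Together the 5 rows made up 7.42% to 12.5% of all counts in KO, with a median of 10.9%, against 12.8% to 20.4% in WT, with a median of 17.5%. No KO library reached the lowest WT library. The mean share was 10.4% ± 1.98 in KO and 17.1% ± 2.48 in WT (SD, n = 6 each), a difference of -6.69 percentage points. The LTR class takes in all repeats of the retroviral type. Over this class the same difference was -8.20 points, and 81.6% of it lay in the 5 rows. That part holds only for plain shares of all counts, where fewer member reads raise the share of every other name in KO. The part under TMM scaling is not given here. Within the ERVL family the members held 80.6% ± 3.21 of the counts in KO and 86.5% ± 1.67 in WT.

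The other LTR names were then compared without the members. As a share of all counts they stood at 37.3% ± 2.15 in KO and 38.8% ± 1.71 in WT (SD, n = 6 each), with overlapping groups. This share is raised in KO by the loss of member reads from the total. Among counts outside the members, the LTR share was 41.7% ± 2.55 in KO and 46.8% ± 1.73 in WT (n = 6 each, two-sided p = 0.00649 by exact permutation, adjusted p = 0.0195 over 3 comparisons). The difference was -5.17 points. Every KO library was under the median of WT, and 5 of 6 were under every WT library. Without WT replicate 2 and KO replicate 5 together the difference did not pass (adjusted p = 0.0714 by exact permutation).

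**Figure D3:**
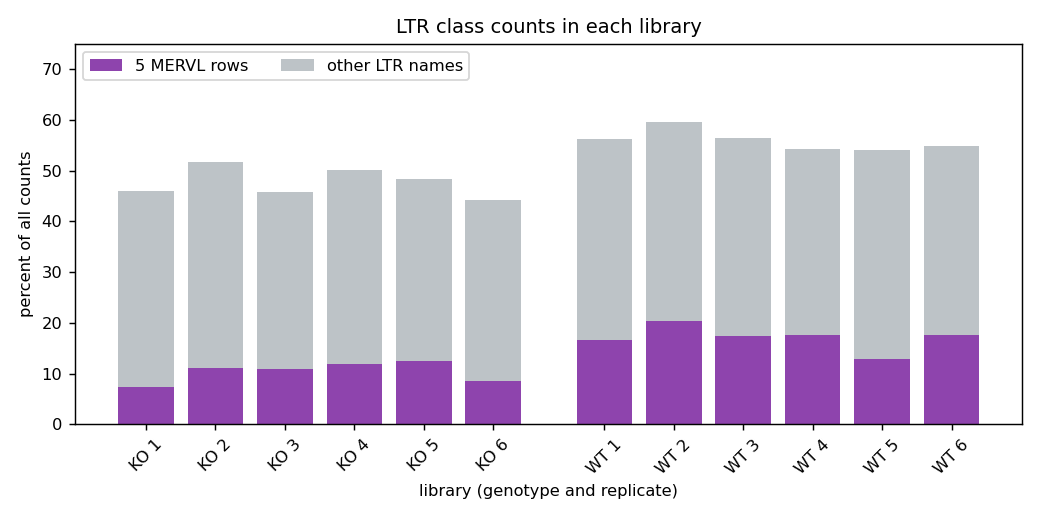
Share of all counts, in percent, held by the 5 MERVL rows (purple) and by the other LTR names (grey) in each library, with KO libraries left of WT libraries. The purple part spans 7.42% to 12.5% in KO and 12.8% to 20.4% in WT, while the grey parts overlap.

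Older terminal repeats of the same ERVL group, the names that start with MT2 other than MT2_Mm, had smaller log2 fold changes than the members. Of these 5 names, 3 fell and 2 did not pass the test, against 1.27% of all tested repeats called lower. This list and the lists of related repeats below were chosen with earlier results of these data known, so their counts are a description. MT2C_Mm averaged 4969 ± 1135 normalised CPM in KO and 8772 ± 1679 in WT (SD, n = 6 each), with a log2 fold change at -0.82 (SE 0.16, adjusted p = 0.0212 by edgeR). For MT2B2 it was -0.62 (adjusted p = 0.0314 by edgeR) and for MT2B -0.41 (adjusted p = 0.0251). MT2B1 stood at -0.36 and MT2A at -0.28 (adjusted p = 0.0643 and 0.0784 by edgeR). The median of the 5 was -0.41, against 0.01 over all tested repeats. Differences between these names and the members were not tested.

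These calls depended on single libraries. None of the 3 held without KO replicate 6, without WT replicate 3, without WT replicate 6, without WT replicate 2 and KO replicate 5 together, or with no filter (adjusted p up to 0.0958 by edgeR in these 5 fits). Without KO replicates 1, 3 or 5, 1 of the 3 remained. DESeq2 and limma-voom with quality weights called all 5 lower. Total-count scaling brought MT2B to -0.10 on the log2 scale (adjusted p = 0.292 by edgeR). MT2C_Mm and MT2B2 were still called lower under it, at -0.52 and -0.30 (adjusted p = 0.00877 and 0.0382 by edgeR).

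**Figure D4:**
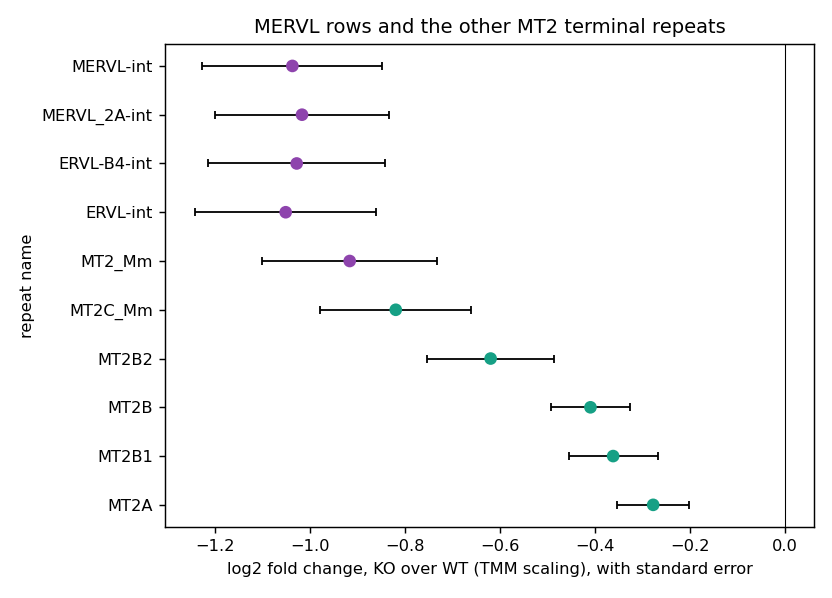
Fitted log2 fold change, KO over WT, with its standard error for the 5 MERVL rows (purple) and the other 5 MT2 terminal repeats (green), n = 6 libraries each. The members lie between -1.05 and -0.92 and the other MT2 names between -0.82 and -0.28.

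Among internal parts of the ERVL family outside the members, none passed the test. ERVL-B4-int and ERVL-int, which were called lower, had been set apart with the members, a set chosen on this contrast. The counts here describe the names that were left and do not show that the fall was confined to the members. Of these 12 names 10 were tested and 0 were called by edgeR, DESeq2 or limma-voom. No name had an unadjusted edgeR p under 0.05, and 8 of the 10 had a positive log2 fold change, with a median of 0.20. Under total-count scaling 1 of them, RMER15-int, was called higher, a name chosen after its values were seen. The smallest p belonged to HERV16-int at 0.61 and MER68-int at 0.47 on the log2 scale (adjusted p = 0.444 and 0.562 by edgeR). Both were scarce, and MER68-int averaged 14.7 normalised CPM in KO and 10.7 in WT.

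The 20 MT names, nonautonomous relatives of ERVL from the ERVL-MaLR family, lay at a median of -0.30 on the log2 scale, and none passed the edgeR test. At an unadjusted p under 0.05, edgeR had 11 lower and 1 higher, against 7.91% of all tested repeats lower and 5.5% higher. DESeq2 called 7 lower and limma-voom 1, against 125 and 63 called lower among all 3312 tested repeats. The smallest p belonged to MTC-int at -0.38 and MT-int at -0.47 (adjusted p = 0.0552 and 0.0625 by edgeR). Without KO replicate 2, 9 of the 20 were called, against 93 of all 3457 tested repeats. The direction depends on the scaling, since total-count scaling moved the median to 0.01 and called 6 higher. That scaling moved the median of all tested repeats to 0.32 and called 357 of 3312 higher. The MT median was thus still below that of all tested repeats.

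Levels of MT2_Mm and MERVL-int followed each other among libraries of 1 genotype. The 2 rows were grouped in advance as parts of 1 element and share the TMM factor of each library. A relation was therefore likely before any test, and the p-values below are no support for the set. Over 6 KO libraries Pearson's r of the log2 normalised CPM was 0.977 (exact permutation p = 0.0125, adjusted p = 0.0125 over 2 genotypes) and Spearman's rho was 0.886 (exact permutation p = 0.0333, adjusted p = 0.0333). Without KO replicates 1 and 6, the libraries farthest from the median, r was 0.390, so the KO relation rests on them. Without either of them alone, it did not pass (adjusted p = 0.075 by exact permutation in each case). In WT, also over 6 libraries, the r came to 0.982 (p = 0.00556 by exact permutation, adjusted p = 0.0111) and rho was 1.0 (exact permutation p = 0.00278, adjusted p = 0.00556). Without WT replicates 2 and 5, r was 0.876 (exact permutation p = 0.0833, n = 4). On shares of all counts, without TMM factors, r was 0.955 in KO and 0.961 in WT. The p-values test against no relation and do not show that this relation is particular to the pair.

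The repeats whose levels were most like those of MERVL-int were ranked among 550 other names that averaged 100 normalised CPM or more, by the lower of the Pearson r over 6 KO and over 6 WT libraries. The 6 highest were L1MdA_II and L1MdMus_II of the L1 family of LINE elements, RLTR12D of the ERVK family, ORR1F-int of the ERVL-MaLR family, MLT2B5 of the ERVL family and MamRTE1, a LINE of the RTE-BovB family. Their r ran from 0.973 to 0.992 in KO and from 0.975 to 0.997 in WT, while the median over the 550 names was 0.371 in KO and 0.224 in WT. Names were picked by this value, so it carries no p, and all points share the library totals and TMM factors. L1MdA_II stood closer to MERVL-int than MT2_Mm did, and 4 of the 550 names did so by this measure.

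The ranking used only differences within a genotype, and all 6 names had lower means in KO. Both the ranking and these means use the TMM factors, which did not overlap between the genotypes, so they may not be independent. L1MdA_II had 2833 to 5604 normalised CPM in KO, with a median of 4813, against 5810 to 11663 in WT, with a median of 8086. Every KO library was below every WT library, and the log2 fold change was -0.90 (SE 0.19, adjusted p = 0.0293 by edgeR). MamRTE1 had 1117 to 1844 in KO, with a median of 1601, against 1863 to 3656 in WT, with a median of 2594, and its log2 fold change was -0.81 (adjusted p = 0.0212 by edgeR). The other 4 did not pass the test, with log2 fold changes of -0.68 for L1MdMus_II, -0.71 for RLTR12D, -0.69 for ORR1F-int and -0.91 for MLT2B5 (adjusted p = 0.0534, 0.0552, 0.0517 and 0.0552 by edgeR). Under total-count scaling these 4 passed as lower. The MamRTE1 call was lost without KO replicate 6, WT replicate 3 or WT replicate 6 and with no filter (edgeR adjusted p = 0.0660, 0.0580, 0.0523 and 0.0630).

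L1MdA_II belongs to the mouse L1Md group of LINE-1 elements, of which 2 of 25 names fell and 23 did not pass, against 1.27% of all tested repeats called lower, with a median of 0.01 on the log2 scale. The other call was L1MdGf_II at -0.62 (SE 0.11, adjusted p = 0.0157 by edgeR), whose r with MERVL-int was 0.897 in KO and 0.564 in WT. On shares of all counts its r was 0.505 in KO and 0.146 in WT. The call of L1MdA_II was lost without KO replicates 1, 3 or 6 and without WT replicates 1, 3, 4 or 6, without WT replicate 2 and KO replicate 5 together, and with no filter, with edgeR adjusted p up to 0.0822. The oocyte repeat MTA_Mm-int had an r with MERVL-int of 0.580 in KO and 0.548 in WT on normalised CPM, and of 0.014 in KO and -0.34 in WT on shares of all counts.

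**Figure D5:**
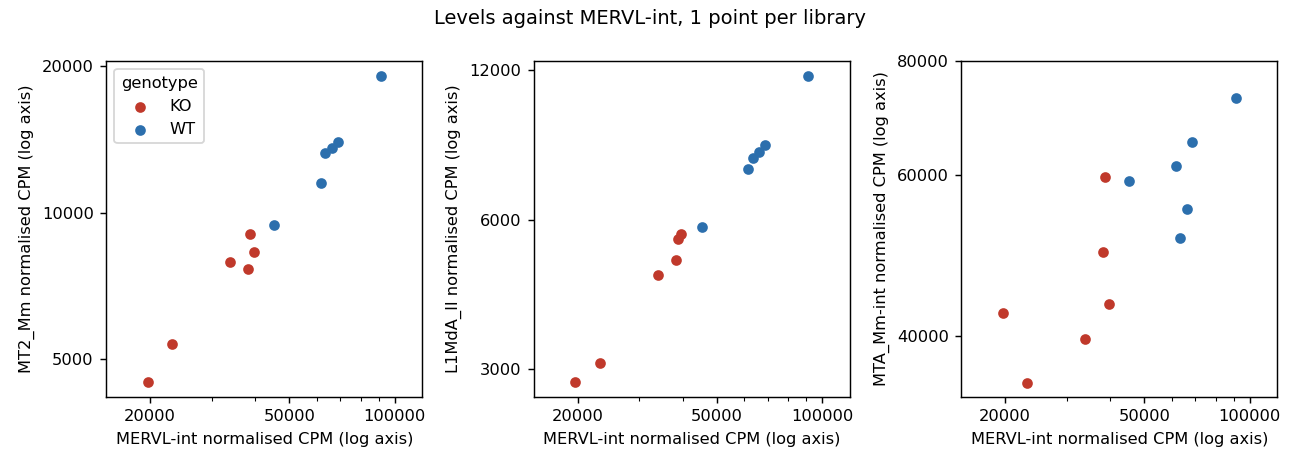
Normalised CPM of MT2_Mm, L1MdA_II and MTA_Mm-int against that of MERVL-int, log axes, with 1 point per library (6 KO in red, 6 WT in blue). MT2_Mm and L1MdA_II rise with MERVL-int in each genotype, while MTA_Mm-int, with r of 0.580 in KO and 0.548 in WT, is more scattered.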

How the data were processed

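Per the submitters' processing notes, mm10, Trimmomatic 0.32 and edgeR were used, with roles not given. The deposited values are estimated counts per repeat name, whole numbers in all 12 libraries. The libraries were made with a stranded kit after ribosomal RNA depletion, per the labels' protocols. For the aligner, the repeat annotation, strand and reads that fit several names: not given in the sources used here.

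Groups and replicate numbers came from sample titles. The names of the deposited files number the replicates of each genotype in the opposite order, from 6 to 1. Rows were kept by filterByExpr (3312 of 18538), scaled by TMM and tested with edgeR 4.0.16 in R 4.3.3, genotype as the only term, KO over WT, Benjamini-Hochberg threshold 0.05. Standard errors came from the F statistic. Single shares were compared by exact permutation over 924 regroupings, two-sided (Python 3.11.15). The smallest p this allows is 0.00216. Alternatives used DESeq2 1.42.0 and limma 3.58.1, other scalings and filters, a replicate block, and removal of libraries.

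Members and lists were chosen with earlier results of these data known. Named repeats are the members, the 6 names most like MERVL-int, and from each list up to 4 called names by smallest p, or 2 where none was called. MT2B1 and MT2A were added to complete their list. L1MdGf_II came from the L1Md list. All libraries were kept.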

Additional observations from a re-analysis of the deposited data

Results flagged for a closer look

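Gaps within groups of 6 libraries were compared with Dixon's 95% critical value, which chance exceeds in about 1 of 20 groups. Of 84 groups compared, 4 exceeded it, which is no more than that rate gives. WT replicate 1 stood apart from its group with the lowest ratio of terminal to internal reads, 0.187 MT2_Mm reads per MERVL-int read, against a WT median of 0.207. It was also apart when MT2_Mm was set against MERVL-int plus MERVL_2A-int, at 0.109, and against all 4 internal rows, at 0.0690, which are the same reads counted again. Without this library the difference in the log2 ratio, KO minus WT, was 0.11, against 0.13 with it. WT replicate 5 stood apart with the smallest share of ERVL family counts held by the 5 rows in its group, 83.3% against a WT median of 86.8%.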

How the results depend on the processing

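All 5 members had negative log2 fold changes in each fit run. Without single libraries these ran from -1.13 to -0.93 for MERVL-int and from -1.01 to -0.80 for MT2_Mm. The number of members called was 4 to 5, a description only, since the set was chosen on this contrast. The replicate numbers gave no clear pairing of the libraries, which does not show that same-numbered libraries were handled apart. Deviations of same-numbered libraries correlated between -0.13 and 0.20, and KO replicates 1 and 2 alone correlated best with their own number. With the replicate block, edgeR called 48 repeats, 2 MT names and all 5 members (MERVL-int -1.06, MT2_Mm -0.93), and the call of MamRTE1 was lost (adjusted p = 0.0504). Calls over all repeats, 47 as reported (5 higher, 42 lower), were 390 with total-count scaling (357 higher, 33 lower), 165 with DESeq2 (40 higher, 125 lower), 71 with limma-voom, 18 with no filter, 23 without WT replicate 2 and KO replicate 5 together, and 19 to 93 without single libraries. The count was 28, 93, 30, 31 and 19 without KO replicates 1, 2, 3, 5 or 6 and 29, 22 and 19 without WT replicates 1, 3 or 6.

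For the other MT2 names, 3 calls became 5 with DESeq2 and with limma-voom, 0 with no filter and 0 without the same pair of libraries, and 0 to 4 without single libraries. MT calls, 0 as reported, were 7 with DESeq2, 6 with total-count scaling, 2 with at least 1 CPM in 6 libraries, 1 with limma-voom, 1 with TMM factors from rows outside the LTR class, and 0 to 9 without single libraries. L1Md calls, 2 as reported, were 4 with DESeq2, 5 with total-count scaling (2 higher, 3 lower), 1 with no filter, 1 without that pair, and 1 to 3 without single libraries. Other ERVL internal parts had 1 call with total-count scaling. The r of MT2_Mm with MERVL-int was 0.390 in KO and 0.876 in WT without the 2 farthest libraries, and 0.948 to 0.989 in KO and 0.960 to 0.999 in WT without single libraries. In KO it did not pass without replicate 1 or without replicate 6 (adjusted p = 0.075 each). The causes were not tested. The LTR share outside the members differed by -5.97 to -4.63 points without single libraries and kept its call in each of these 12 cases. It lost the call without WT replicate 2 and KO replicate 5 together (-4.57 points, adjusted p = 0.0714). With the replicate block the difference was -5.17 points (adjusted p = 0.0938, the smallest that block allows over 3 comparisons).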
